A study of Mus musculus with 6 samples.

Results

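AP-1 is a family of transcription factor dimers, and the transcripts of 8 of its subunits, Fos, Fosb, Fosl1, Fosl2, Jun, Junb, Jund and Atf3, are described here across 6 RNA-seq libraries of cultured mouse oligodendrocyte progenitor cells (OPCs). The members were taken by gene symbol, and all 8 were found among 24421 genes listed in the count tables. They were proposed with their knockout and control values already known, so the difference between these groups is given for them as a description and not as a test. The knockout group (3 libraries) had the genotype Prrc2bf/f with Olig2-Cre, and the control group (3 libraries) had the genotype Prrc2bf/f without Cre. Both groups thus carried floxed alleles of Prrc2b, which encodes an RNA-binding protein of the PRRC2 family. All cells came from C57BL/6J pups at postnatal day 4, were selected from the cortex by panning on GalC and then O4 antibodies, and were kept in the same proliferation medium, which held PDGF-AA, bFGF and forskolin among other factors. The series' design text names brain tissue in place of cultured cells. Olig2-Cre acts in cells that express Olig2 or did so earlier, which need not all be OPCs, and no library carried the Cre without floxed Prrc2b, so an effect of the Cre allele and one of Prrc2b loss cannot be told apart. The labels do not say how many animals gave each library or whether libraries came from separate animals, so the spread between them may be partly technical.

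Subunits of AP-1 carry a basic region that touches DNA and a leucine zipper that holds the dimer together. Fos proteins cannot pair with one another and need a Jun partner, whereas Jun proteins can also pair among themselves, and Atf3 pairs with Jun proteins. Fos, Fosb, Jun, Junb and Atf3 are immediate early genes, switched on within minutes by growth factors, cyclic AMP, stress or the handling of cells, and Jund is the member usually described as steadily expressed. Jund has been described as a brake on proliferation in fibroblasts, where Jun promotes it. The dimers bind sites with the letters TGANTCA, and the related cyclic AMP response element holds TGACGT.

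The stretches just upstream of the starts of Fos, Fosb and Jun are shown. They were chosen by a RefSeq start within 50 bases of the GENCODE start and a motif within them, not by expression. They are the last 100 bases before the RefSeq start on GRCm38.p6, read 5′ to 3′ on the strand of the gene, and capitals mark the motifs found.
Fos, chr12:85473790-85473889, plus strand: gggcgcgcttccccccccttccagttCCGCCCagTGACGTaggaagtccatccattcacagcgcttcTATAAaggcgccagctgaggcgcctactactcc
Fosb, chr7:19310046-19310145, minus strand: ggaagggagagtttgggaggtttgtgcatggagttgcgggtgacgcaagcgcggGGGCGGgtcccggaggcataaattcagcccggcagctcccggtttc
Jun, chr4:95052223-95052322, minus strand: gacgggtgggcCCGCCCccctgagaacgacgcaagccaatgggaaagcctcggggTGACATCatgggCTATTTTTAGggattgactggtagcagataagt
In Fos the capitals mark, in order, GGGCGG read on the other strand, TGACGT from base -66 to -61 and TATAA. In Fosb they mark GGGCGG from base -46 to -41. In Jun they mark GGGCGG read on the other strand, TGACNTC from base -45 to -39, and the MEF2 motif from base -33 to -24, the kind of site that MEF2 factors bind. Motifs were sought on both strands of the 250 bases upstream of 32851 RefSeq starts. Of these windows, 6.47% held TGACGT, 6.75% TGANTCA, 15.6% TGACNTC, which overlaps TGACGT in part, 32.7% GGGCGG, 22.8% TATAA, 2.92% the MEF2 motif and 1.47% the CArG box to which serum response factor binds. RefSeq gave a window for 7 of the 8 members. For Jund its start lay upstream of the GENCODE start (offset -1210 bases), and for Fosl2 and Atf3 it lay 671 and 34706 bases downstream of the outermost GENCODE start, so those windows are not shown. Junb had a RefSeq start near that of GENCODE (offset -30 bases), but its window held none of these motifs and is not shown either.

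The libraries held 26015604 to 28114968 gene counts each, and 15906 genes passed the filter on low counts and were tested, all 8 members among them. Prrc2b was lower in every knockout library, at 653, 826 and 771 CPM (gene counts scaled to the same total in each library), against 928, 1080 and 931 CPM in control libraries (log2 fold change -0.41, SE 0.06, edgeR adjusted p = 0.00688 with the replicate block described next, and 1.00 without it). In the edgeR quasi-likelihood test, which called a gene at an adjusted p under 0.05, 0 genes were called between the groups, with 274 at an unadjusted p under 0.05. With the replicate number of the libraries added as a block, which compares knockout and control libraries of the same number, 604 genes were called. OPC markers summed to 2278 to 4790 CPM in knockout and 2231 to 4001 CPM in control libraries, with Pdgfra and Cspg4 among them and 0 of 8 at 0 counts. Neuronal markers summed to 2870 to 4074 CPM in knockout and 3149 to 4184 CPM in control libraries, and astrocyte markers to 1575 to 2879 CPM in knockout and 1307 to 2406 CPM in control libraries, so transcripts of other cell types were present in all 6 libraries. In such mixed RNA a change in the number of cells of a type and a change in transcript per cell cannot be told apart.

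Jun, Jund and Fos were the 3 most abundant AP-1 transcripts in these cells. Levels of different genes are compared as CPM per kilobase of merged exons, over the 6 libraries. Jun stood at 273 ± 46.7 CPM per kb (SD, n = 6), Jund at 245 ± 76.6 and Fos at 180 ± 41.2. The ranges of Jun and Jund overlapped, as did those of Jund and Fos, so the order among these neighbours is not settled by the spread. Jun was above Jund in 5 of 6 libraries. Every library of Fos lay above every library of the next group, which was formed by Atf3 at 52.9 ± 7.51, Fosb at 45.0 ± 25.3 and Junb at 40.5 ± 10.5 CPM per kb, all overlapping in range. Fosl2, a Fos protein that is induced more slowly, stood at 10.3 ± 2.00 CPM per kb, and Fosl1 was the scarcest at 2.04 ± 0.887, resting on 62 to 183 counts per library. Neither overlapped the member above it. Divided by the length of the longest transcript instead, 6 of the 8 members kept their place, and Fosb (74.3 CPM per kb) stood above Atf3 (57.4 CPM per kb).

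**Figure D1:**
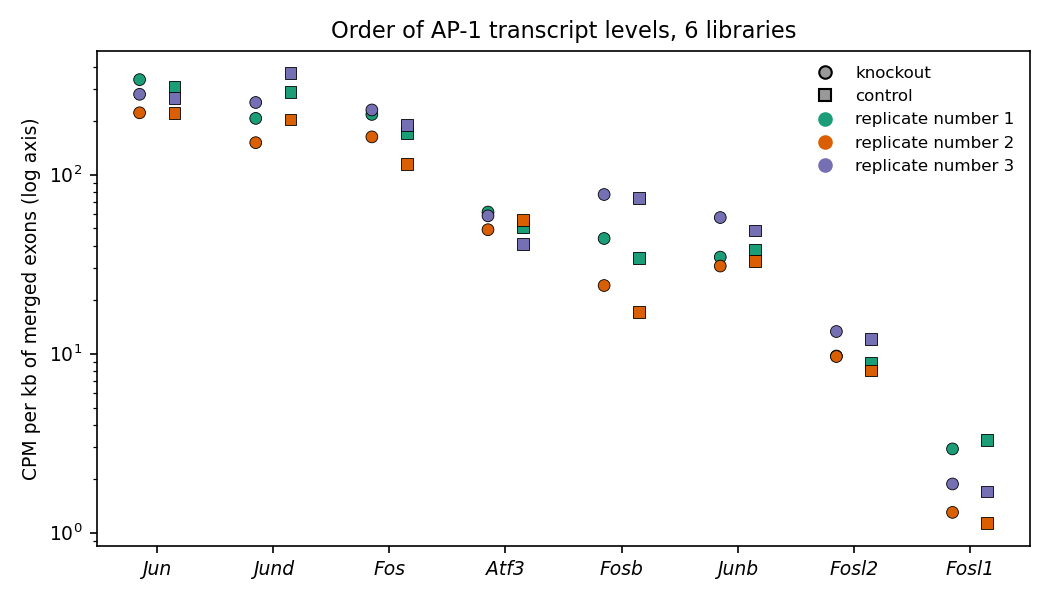
Level of each AP-1 transcript in CPM per kilobase of merged exons (log axis), with knockout libraries as circles left of control libraries as squares and replicate numbers in colour. Jun, Jund and Fos lie together at the top, and Fosl1, at 2.04 CPM per kb on average, lies lowest.

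Jund was lower in the knockout library of every same-numbered pair. It stood at 343, 251 and 421 CPM in knockout libraries 1, 2 and 3, against 483, 339 and 613 CPM in control libraries 1, 2 and 3. The groups overlapped, and library 3 was highest and library 2 lowest in both. Within a pair the knockout level was 0.710, 0.742 and 0.687 of the control level for numbers 1, 2 and 3. The fitted log2 fold change was -0.52 (SE 0.26) without the block and -0.52 (SE 0.04) with it.

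Jund has the highest GC content of the members, at 67.1%, above 99.8% of tested genes. When each library was corrected for its dependence on GC content its blocked log2 fold change was -0.37. That correction used the median of each of 20 bins, so a dependence on GC content within the top bin, which holds Jund, was not corrected. The single exon of Jund spans chr8:70698949-70700616 (GRCm38, plus strand), and the antisense gene Gm11175, which is not in the count tables, overlaps 919 of its 1668 bases. As the strand setting of the counting is not stated, reads from the antisense strand could not be separated from those of Jund.

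For Jun and Junb the values of the groups lay closer together. Jun, the founding Jun protein, stood at 1080, 705 and 894 CPM in knockout libraries, against 979, 706 and 853 CPM in control libraries. In the pair numbered 2 the values were nearly equal, and the blocked log2 fold change was 0.044 (SE 0.051). Junb, an immediate early Jun protein, stood at 79.6, 70.9 and 132 CPM in knockout libraries, against 87.6, 75.9 and 112 CPM in control libraries, lower in the knockout in 2 pairs and higher in 1, with a blocked log2 fold change of -0.023 (SE 0.076). Junb is also rich in GC, at 62.6%, and stood at 0.12 after GC correction. The single exon of Jun spans chr4:95049034-95052222 (minus strand), where the antisense gene Junos overlaps 689 bases, and Prdx2 overlaps 351 bases of Junb on the opposite strand.

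Jund also made up a smaller share of the Jun family in each knockout library. It gave 35.5%, 37.4% and 42.8% of the summed CPM per kb of Jun, Junb and Jund in knockout libraries, against 45.6%, 44.4% and 53.8% in control libraries. These shares did not overlap between the groups, whereas the CPM of Jund did. They restate the Jund values above in part, and such shares were not computed for other gene families. How often they separate the groups is therefore not known. The summed level of the 3 genes was 579, 403 and 590 CPM per kb in knockout libraries, against 635, 457 and 684 CPM per kb in control libraries.

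Fos and Fosb, which encode the immediate early Fos proteins, were higher in the knockout library of every pair. Fos stood at 509, 381 and 539 CPM in knockout libraries 1, 2 and 3, against 400, 270 and 445 CPM in control libraries 1, 2 and 3. The groups overlapped in range, and library 2 was lowest in both. The knockout level was 1.27, 1.41 and 1.21 times the control level in pairs 1, 2 and 3. The fitted log2 fold change of Fos was 0.34 (SE 0.21) without the block and 0.35 (SE 0.04) with it, and it was 0.34 after GC correction. Fos spans chr12:85473890-85477273 (plus strand), with a GC content of 51.9%.

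Fosb varied far more between libraries than between groups. It stood at 274, 150 and 483 CPM in knockout libraries, against 214, 107 and 460 CPM in control libraries. Number 3 was highest and number 2 lowest in both groups, and the ranges overlapped almost wholly. The knockout level was 1.28, 1.41 and 1.05 times the control level in pairs 1, 2 and 3. Its log2 fold change was 0.28 (SE 0.06) with the block and 0.20 (SE 0.59) without it. With 1 library left out the unblocked value ranged from -0.31 without knockout library 3 to 0.88 without control library 3. It was -0.17 without control library 2 and 0.52 without knockout library 2.

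Fosl2 and Fosl1 had smaller blocked log2 fold changes than Fos and Fosb. Fosl2 stood at 93.9, 93.3 and 129 CPM in knockout libraries, against 85.5, 77.9 and 117 CPM in control libraries, higher in the knockout in all 3 pairs with a blocked log2 fold change of 0.15 (SE 0.051). Fosl1 stood at 5.97, 2.64 and 3.81 CPM in knockout libraries, against 6.72, 2.30 and 3.45 CPM in control libraries, and its blocked log2 fold change was 0.018 (SE 0.20). The coding gene Ccdc85b overlaps Fosl1 on the opposite strand. Summed per kilobase, the 4 Fos genes gave 273, 197 and 322 CPM per kb in knockout libraries, against 216, 141 and 277 CPM per kb in control libraries.

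Atf3, a stress-induced subunit that often acts as a repressor, showed no common direction. It stood at 133, 106 and 127 CPM in knockout libraries, against 109, 120 and 88.3 CPM in control libraries. It was higher in the knockout in pairs 1 and 3 and lower in pair 2. The blocked log2 fold change was 0.18 (SE 0.11), and it was 0.38 without the pair numbered 2 and 0.020 without the pair numbered 3.

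**Figure D2:**
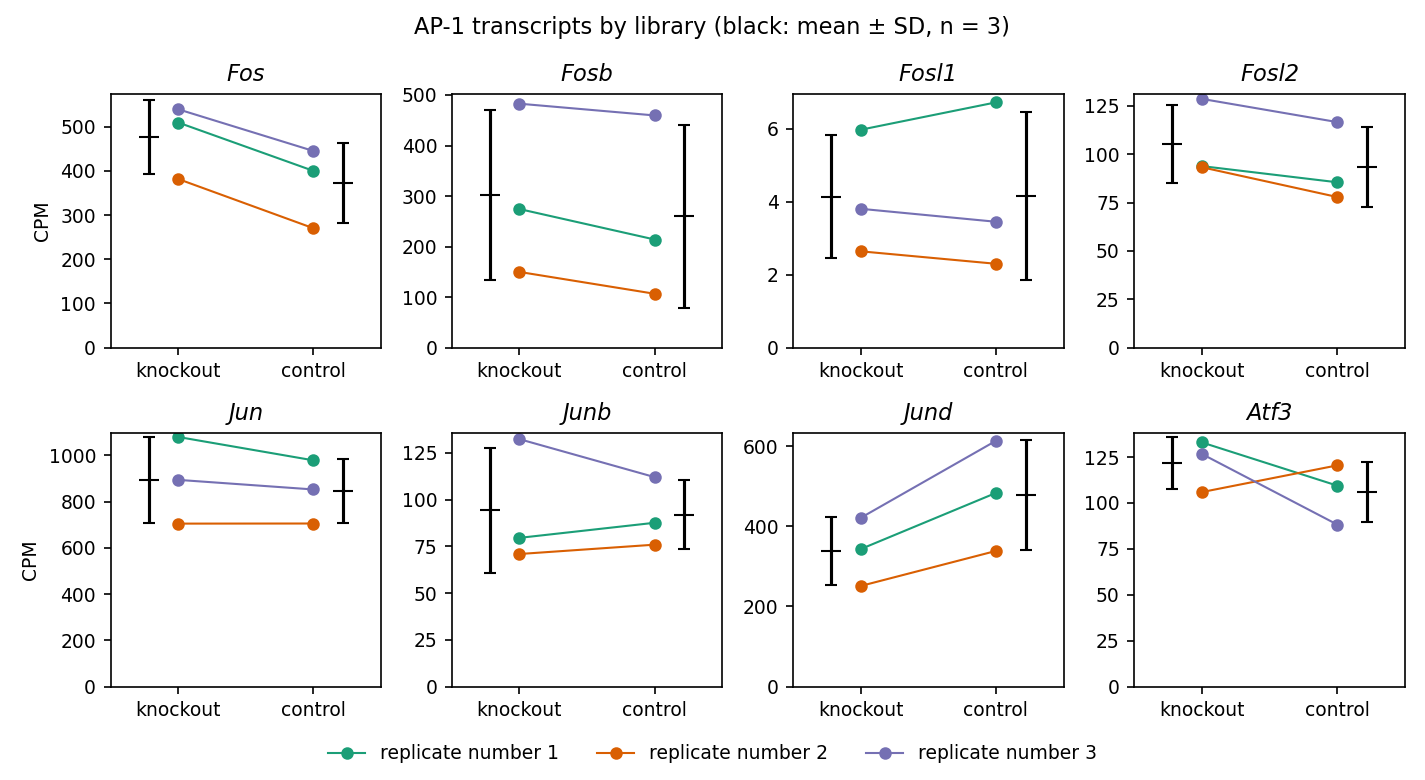
CPM of each AP-1 transcript in the 3 knockout libraries (left) and 3 control libraries (right) of each panel, with lines joining libraries of the same replicate number and black marks for the mean ± SD. The lines of Fos and Fosb all lie higher at the knockout end and those of Jund all lie lower there, while every panel's groups overlap.

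Of the 8 members, 3 were higher and 1 was lower in the knockout in all 3 pairs, and 0 had groups that did not overlap. Among all tested genes 23.9% were higher and 16.0% lower in all 3 pairs, 39.8% together, and groups did not overlap in 6.11%. Without the block 0 members were called, where 0% of all genes were called. With the block Fos and Fosb were called as higher and Jund as lower, 3 of 8, where 3.80% of all genes were called, 1.57% as higher and 2.23% as lower. Scaling to library totals turned that split of 250 higher and 354 lower genes to 271 and 231, the upper quartile to 289 and 247, and GC correction to 198 and 184. As the members were chosen with this contrast in view, nothing is read from that count. Fos and Jund were called in each of 11 further settings with the block. Fosb was not called in 5 of them, namely GC correction, limma-voom, a mean of at least 5 CPM, and leaving out the pair numbered 1 or 2. Atf3 was called once, without the pair numbered 2. These settings re-use all or some of the same 6 libraries, so nothing is read from these calls either. The median blocked log2 fold change over the 8 members was 0.098, against 0.0025 over all tested genes.

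**Figure D3:**
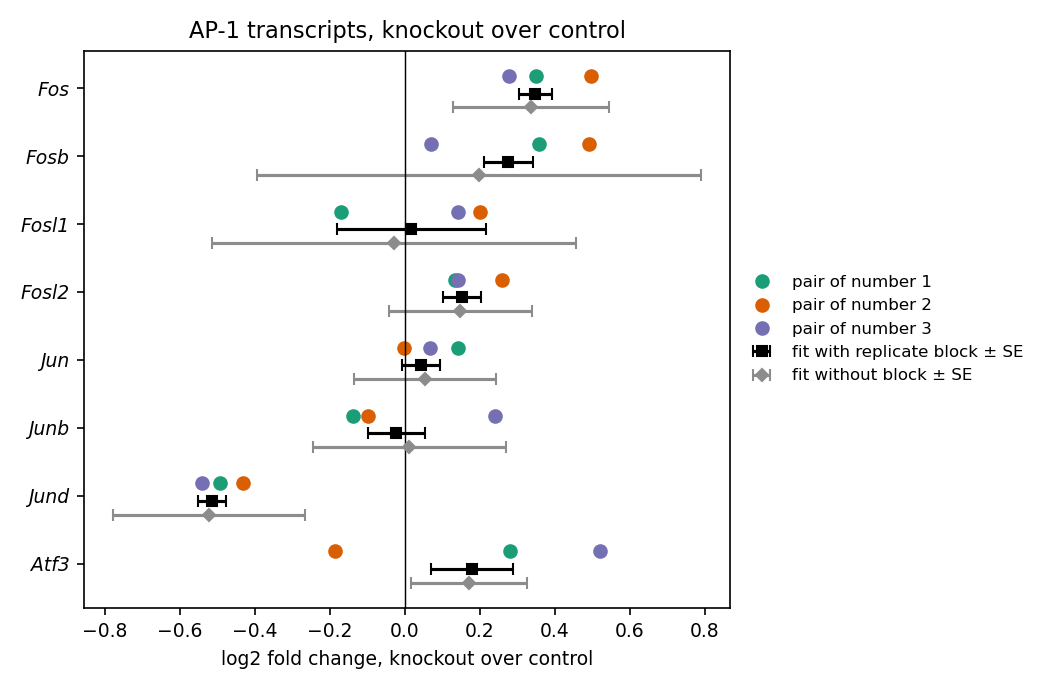
Log2 fold change of each AP-1 transcript, knockout over control, for the pair of each replicate number (coloured circles) and as fitted with the replicate block (black squares) and without it (grey diamonds), both ± SE. Fos sits at 0.35 and Jund at -0.52 with the block, with all 3 pairs on one side of 0, and the grey error bars are wider.

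Markers of other cell types differed between the groups in the same libraries. In the blocked edgeR test 3.80% of all tested genes were called, 1.57% as higher and 2.23% as lower. Without the block 0 genes were called, and so no marker. Endothelial markers summed to 120, 43.5 and 289 CPM in knockout libraries 1, 2 and 3, against 55.9, 18.7 and 85.1 CPM in control libraries 1, 2 and 3, and 7 of 8 rose in the blocked edgeR test. Ependymal and choroid plexus markers summed to 1178, 914 and 3011 CPM in knockout libraries, against 526, 432 and 2047 CPM in control libraries, and 5 of 8 rose. Of 8 astrocyte markers 4 rose, of 8 pericyte markers 2 rose, of 8 neuronal markers 1 fell, and 0 of 8 microglial and 0 of 8 OPC markers were called. Among the OPC markers, Olig2 is named after its values were seen. Its knockout level was 0.962, 0.543 and 0.701 of the control level in pairs 1, 2 and 3, with overlapping groups. The blocked log2 fold change of Olig2 was -0.50 (SE 0.12, edgeR adjusted p = 0.0533), and a part of the Cre allele in it was not tested. No marker of these lists was at 0 counts in any library. Of 8 markers of mature oligodendrocytes 6 were tested and 0 were called. They summed to 255 to 673 CPM in knockout and 206 to 855 CPM in control libraries, and Opalin was at 0 counts in at least 1 library. These cell types can express AP-1 genes, and their part in the values of Fos, Fosb and Jund was not tested.

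Most AP-1 transcripts differed between the replicate numbers, a comparison that the choice of members did not use and that was made after the values were seen. The labels do not say what a number marks. With genotype held in the model, the edgeR quasi-likelihood test of the replicate number called 7 of the 8 members, all except Atf3 (adjusted p = 0.439). It also called 51.2% of all tested genes, so a call by replicate number is common in these libraries. For all 8 members the span between the highest and lowest number was larger than the blocked genotype change, as it was for 90.1% of all tested genes. The span is the largest of 3 differences set against a single one, which favours the number. The median span was 0.64 on the log2 scale over the members and 0.45 over all tested genes.

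Fosb had the widest span, 3.64-fold between numbers 3 and 2 (adjusted p = 7.57e-07), higher at number 3 in both genotypes. Number 2 was 0.92 below number 1 and number 3 was 0.95 above number 1 on the log2 scale. The replicate number took up 95.1% of the sum of squares of its log2 CPM and the genotype 3.72%. Fosl1 spanned 2.54-fold (adjusted p = 0.00355) with number 1 highest, a different order from that of Fosb.

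Jund spanned 1.70-fold (adjusted p = 4.78e-06), Junb 1.62-fold (adjusted p = 0.000453), Fos 1.49-fold (adjusted p = 6.11e-05), Jun 1.44-fold (adjusted p = 0.000318) and Fosl2 1.40-fold (adjusted p = 0.000256). Number 3 was highest for Jund, Junb, Fos and Fosl2, and number 1 for Jun, and number 2 was lowest for these 5 genes. Genotype took up 35.4% of the sum of squares for Jund and 32.8% for Fos, the largest shares among the members, while the replicate number took up 64.3% for Jund and 65.2% for Fos. Atf3 was the only member whose genotype share (27.7%) was above that of the replicate number (15.8%), and 56.5% fell to neither.

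Cell type markers also moved with the number. The edgeR test of the replicate number called 8 of 8 microglial, pericyte, OPC, neuronal and endothelial markers each. It also called 8 of 8 ependymal and choroid plexus, 7 of 8 astrocyte and 6 of 6 tested mature oligodendrocyte markers. Of all tested genes 51.2% were called. Microglial markers summed to 21.2, 255 and 211 CPM in knockout libraries 1, 2 and 3, against 22.5, 262 and 191 CPM in control libraries 1, 2 and 3. Pericyte markers summed to 144, 109 and 591 CPM in knockout libraries, against 128, 89.4 and 470 CPM in control libraries. The sums of OPC, astrocyte, endothelial, pericyte, and ependymal and choroid plexus markers were lowest at number 2 in both groups. Every AP-1 member except Atf3 was lowest there too. Neuronal markers were highest at number 2 in both groups, and microglial and mature oligodendrocyte markers were lowest at another number. Whether cell make-up, handling or another factor set these levels was not tested.

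**Figure D4:**
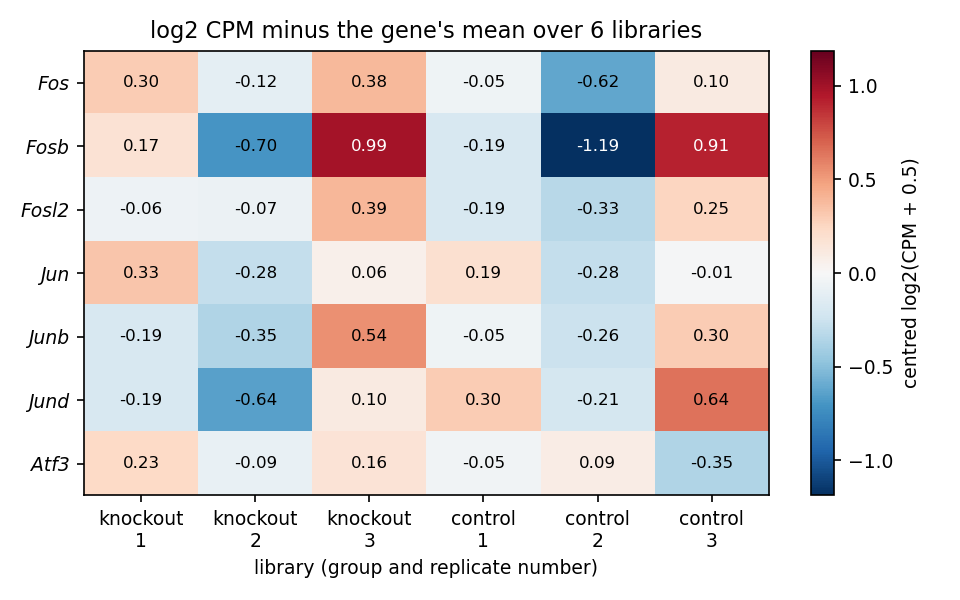
Log2(CPM + 0.5) of the 7 AP-1 transcripts with a mean of at least 5 CPM, minus each gene's mean over the 6 libraries, with knockout libraries left of control libraries. Fosb is highest in knockout library 3, at 0.99, and lowest in control library 2, at -1.19, and Jund is at -0.64 in knockout library 2 and 0.64 in control library 3.

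The genes whose profile over the 6 libraries was most like that of Fos were not AP-1 members. Members were few among the genes compared, so nothing is read from their absence. Likeness was measured as the root mean square difference of centred log2 CPM among 12049 other genes whose mean reached 5 CPM. Nearest to Fos were Pon2 (0.056), Gcnt2 (0.060), Sgms1 (0.060) and Otud1 (0.072), where the median over these genes was 0.37. The nearest member was Fosl2 at 0.21, which ranked 835. Nearest to Jund were Lmo1 (0.095), 1110065P20Rik (0.13), E130012A19Rik (0.13) and Chpf (0.14), where the median gene lay at 0.45, and its nearest member, Junb at 0.29, ranked 558. Lmo1, which encodes a LIM-domain transcriptional regulator, stood at 21.4, 13.6 and 23.4 CPM in knockout libraries, against 28.03, 16.8 and 35.5 CPM in control libraries, with number 2 lowest and number 3 highest in both groups as for Jund. The closest pair among members was Fosl2 with Junb at 0.16, and the farthest was Fosb with Atf3 at 0.85.

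Of the genes listed as AP-1 targets some rose with the block, and most were not called. Without the block 0 of 125 listed genes tested were called, and with it 14 were, beside 3.80% of all tested genes. Of 26 tested targets 5 rose, 0 fell and 21 did not pass, with a median log2 fold change of 0.20 with the block and 0.12 without it. The list was drawn from genes described as AP-1 targets in various cell types, so they need not be targets in OPCs. Like the members, this list and those below were chosen with earlier results of these data known. Their calls are thus a description and not independent support. Hbegf, a growth factor of the EGF family, stood at 48.0, 23.0 and 43.9 CPM in knockout libraries, against 38.3, 14.5 and 26.1 CPM in control libraries (0.55 on the log2 scale with the block, SE 0.10, edgeR adjusted p = 0.0205). It was higher in the knockout in all 3 pairs, and both groups were lowest at number 2.

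Gfap, the intermediate filament gene of astrocytes, rose by 0.55 (SE 0.06, edgeR adjusted p = 0.00362), and Gja1, a gap junction gene, by 0.32 (SE 0.04, edgeR adjusted p = 0.00705). Both are also among the astrocyte markers that rose in these libraries. Cd44, which encodes a hyaluronan receptor, rose by 0.42 (SE 0.09, edgeR adjusted p = 0.0381) and is named after its values were seen, as it falls outside the rule of 4 genes per list. Without the pair numbered 3, Hbegf (edgeR adjusted p = 0.110) and Cd44 (0.187) were no longer called, and neither was Cd44 without the pair numbered 2 (0.112), after GC correction (0.0590) or with the stricter floor of 5 CPM on the mean (0.0502).

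Upstream of AP-1, 3 genes of the kinase and promoter lists were called. Of 32 genes of the MAP kinase cascade, whose kinases phosphorylate Jun proteins and the factors that bind the Fos promoter, 0 rose, 2 fell and 30 did not pass (6.25% called, where 3.80% of all tested genes were), with a median of -0.024. Mapk7, which encodes the kinase ERK5, stood at 99.3, 107 and 101 CPM in knockout libraries, against 121, 131 and 116 CPM in control libraries, and these groups did not overlap (-0.28 on the log2 scale with the block, SE 0.05, edgeR adjusted p = 0.0174). Mapk8ip2, a scaffold of JNK signalling, fell by 0.24 (SE 0.04, edgeR adjusted p = 0.0243). Of 18 tested regulators that act at the Fos and Jun promoters 0 rose, 1 fell and 17 did not pass (5.56% called), with a median of -0.0071 with the block and 0.0077 without it. That gene was Srf, which encodes the serum response factor and fell by 0.22 (SE 0.04, edgeR adjusted p = 0.0174), but was not called after GC correction (0.336) or without the pair numbered 3 (0.125). Mapk8ip2 was not called without the pair numbered 3 either (edgeR adjusted p = 0.139).

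Of 13 tested partner proteins of the same class, among them Atf2, Jdp2 and the Maf genes, 0 rose, 0 fell and 13 did not pass, with a median of 0.029. Of 13 tested regulators of AP-1 mRNA and protein turnover 1 rose, 1 fell and 11 did not pass (15.4% called), with a median of 0.0020 with the block and 0.016 without it. Zfp36 encodes a protein that binds AU-rich elements and speeds decay of such mRNAs, and is itself an immediate early gene. It stood at 56.6, 74.9 and 106 CPM in knockout libraries, against 42.6, 61.5 and 62.7 CPM in control libraries (0.46 on the log2 scale with the block, SE 0.09, edgeR adjusted p = 0.0252), and was not called without the pair numbered 3 (0.0957). Khsrp, another factor of AU-rich mRNA decay, fell by 0.21 (SE 0.04, edgeR adjusted p = 0.0262), and was not called after GC correction (0.0535) or without the pair numbered 1 (0.0939) or 2 (0.0557).

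Of 23 immediate early genes outside AP-1 a rise was called for 4 and a fall for 0, with 19 not passing (17.4% called). Of all tested genes 3.80% were called, 1.57% as higher. The median of the list was 0.16, against 0.0025 over all tested genes. Arc, which encodes a synaptic regulator, rose by 0.57 (SE 0.12, edgeR adjusted p = 0.0323), and the zinc finger factor genes Klf4 by 0.38 (SE 0.07, edgeR adjusted p = 0.0179), Klf6 by 0.24 (SE 0.04, edgeR adjusted p = 0.0171) and Egr1 by 0.22 (SE 0.05, edgeR adjusted p = 0.0428). Egr1 stood at 627, 334 and 259 CPM in knockout libraries, against 538, 302 and 200 CPM in control libraries, highest at number 1, where Fosb was highest at number 3. Without the pair numbered 3 none of these 4 were called (edgeR adjusted p from 0.0616 for Arc to 0.181 for Egr1), nor were Klf6 and Egr1 without the pair numbered 1 (0.0565 and 0.0656) or Arc without the pair numbered 2 (0.0669).

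**Figure D5:**
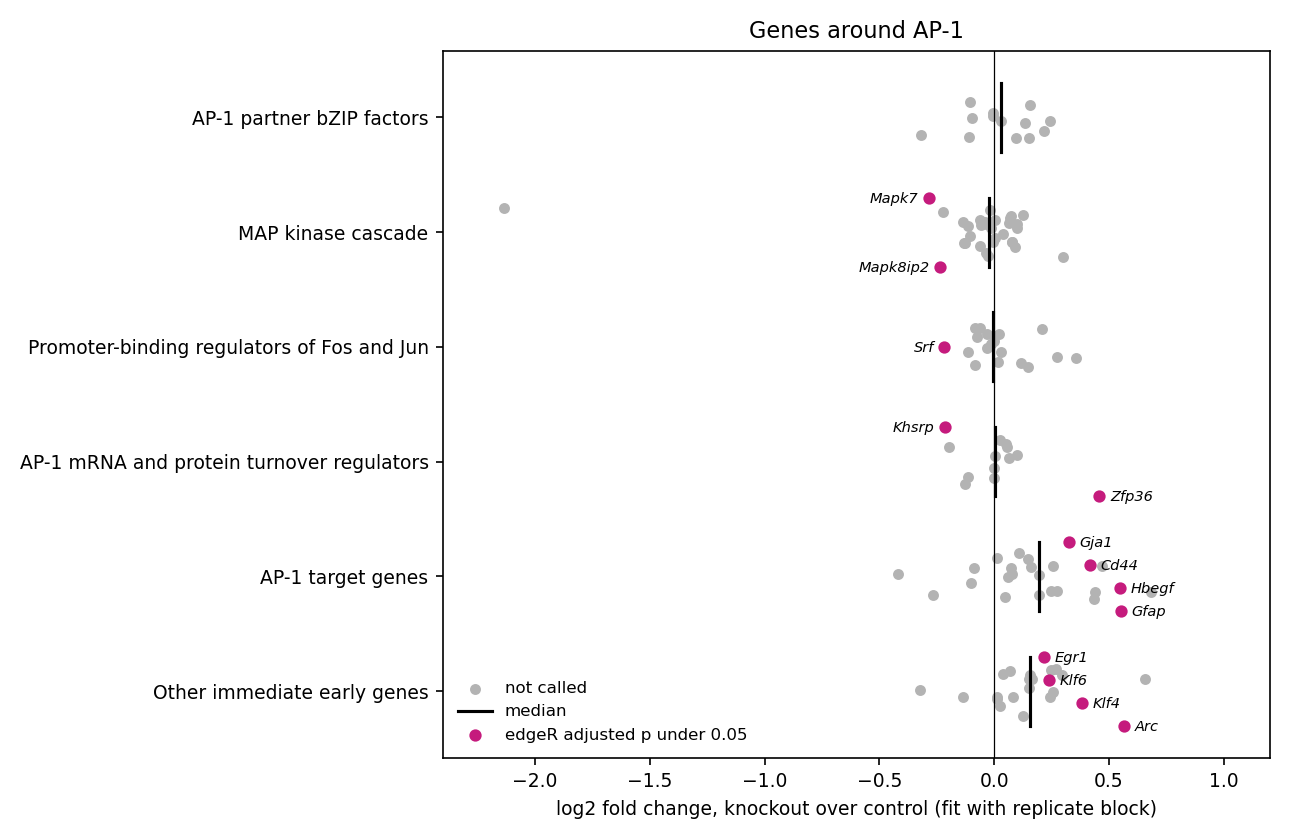
Blocked log2 fold change, knockout over control, of the tested genes in 6 lists around AP-1, except 1 called target, with genes called by edgeR in colour and black bars at each list's median. Medians lie between -0.024 and 0.20, and the far left point is Mapk13, which had 3 to 23 counts per library and was not called.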

How the data were processed

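The deposited values are whole-number counts per gene symbol, 1 table per library. The submitters' processing notes list the mm10 build, DESeq2 1.26.0, HTSeq 0.12.4 and HISAT2 2.2.1, with no roles. Annotation and strand setting were not given in the sources used here. Per the labels' protocols, libraries were stranded, poly(A)-selected and paired-end. The 5 summary entries of each table (20.8% and 19.7% of read pairs in no gene, as means of knockout and control libraries, among them) were left out. CPM was computed over gene counts. Gene lengths, GC content and coordinates came from GENCODE M21 (GRCm38), matched by symbol for 23336 of 24421 genes, and promoters from RefSeq (GRCm38.p6).

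After TMM scaling, the counts went through edgeR 4.0.16 (R 4.3.3), whose quasi-likelihood test was used two-sided with Benjamini-Hochberg adjustment over 15906 genes, checked on simulated data. The labels number the libraries of both groups alike. The correlation of deviations from group means was 0.676, 0.645 and 0.617 for the pairs sharing a number. For knockout and control libraries of unlike numbers it lay between -0.39 and -0.20. This was read as pairing, from the same libraries as the fits, and the model was also fitted with the number as a block. Alternatives were other scalings and filters, DESeq2 1.42.0, limma-voom (limma 3.58.1), GC correction in 20 bins and left-out libraries. Fold changes are knockout over control. Each SE is the absolute log2 fold change divided by the square root of the F statistic of the quasi-likelihood test. Named beside the members were Prrc2b, up to 4 called genes per list by adjusted p (1 AP-1 target that passed is not reported here), and the 4 genes most like Fos and Jund. Members and lists were chosen with earlier results of these data known.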

Additional observations from a re-analysis of the deposited data

Results flagged for a closer look

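For 3 of the 5 classes of read pairs that entered no gene's count, and so no comparison, all 3 knockout libraries had a larger share than any control library. Pairs in no gene were 20.8% ± 0.50 in knockout and 19.7% ± 0.665 in control libraries (SD, n = 3 each), a difference of 1.10 percentage points. Pairs of low alignment quality were 3.83% ± 0.248 in knockout and 3.11% ± 0.193 in control libraries, a difference of 0.718 percentage points, and unaligned pairs were 1.25% ± 0.122 in knockout and 1.03% ± 0.0964 in control libraries, a difference of 0.222 percentage points. Each had a two-sided exact permutation p of 0.1, the smallest that 3 against 3 libraries allow. Their part in the values of the AP-1 genes was not tested.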

How the results depend on the processing

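Without the block, other scalings, filters, limma-voom and each left-out library gave 0 called genes, and DESeq2 called 20, with 0 AP-1 members and 0 pathway genes among the calls of any of these. With the replicate block, which used the pairing of the libraries by number, edgeR called 604 genes, 3 members and 14 pathway genes. With the block and, in turn, DESeq2 size factors, library totals, upper quartile scaling, no filter, a mean of at least 5 CPM, DESeq2, limma-voom and GC correction, the counts of called genes were 573, 502, 536, 1034, 435, 703, 712 and 382, those of members 3, 3, 3, 3, 2, 3, 2 and 2, and those of pathway genes 14, 15, 15, 18, 13, 14, 16 and 11. With the block and 1 pair left out there were 444, 521 and 174 called genes, 2, 3 and 3 members, and 13, 17 and 4 pathway genes without pair 1, 2 and 3, each from 4 libraries. The cause of these shifts was not tested. Over the left-out libraries and pairs the log2 fold change of Srf ranged from -0.48 to 0.043, reversed without control library 3, and that of Egr1 from -0.26 to 0.66, reversed without knockout library 1 (-0.26) and control library 3 (-0.075). Over the left-out libraries the unblocked log2 fold change ranged from 0.16 to 0.48 for Fos and from -0.71 to -0.31 for Jund. The replicate number test called 6126 to 8451 genes and 6 to 8 members over 12 alternatives. Fosl1, the scarcest member, did not reach a mean of 5 CPM and is limited by its counts. No protein sequences were analysed here.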
